A study of Mus musculus with 8 samples.

Results

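The circadian clock genes described here are the 10 genes Arntl, Clock, Per1, Per2, Per3, Cry1, Cry2, Nr1d1, Nr1d2 and Dbp, chosen by name as the core transcription loop of the mouse clock and its best known output factor. All 10 were among the 20226 genes tested on the arrays, and they were represented by 25 of 56605 distinct probes. RNA came from cardiac mesenchymal stromal cells (cMSCs), sorted directly from mouse hearts as Sca-1+ PDGFRα+ CD31- CD45- cells, and each array held a pool of cells from mice labelled as male C57Bl/6. The study's methods name both C57Bl/6JRj mice and heterozygous CX3CR1gfp/+ CD45.1 reporter mice on this background, and which of them gave these pools is not known here. Aged mice were 20 months old (4 pools, numbered 1 to 4) and young mice 5 months old (4 pools, numbered 2 to 5), with 3 mice planned per pool, although the label code of aged pool 4 may stand for only 2. The labels give no treatment, and no difference between the groups other than age. Neither the labels nor the methods give the hour of the day at which hearts were taken, and it is unknown here.

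The clock of a mammalian cell is a loop of transcription with a period of about a day. ARNTL (also called BMAL1) and CLOCK bind DNA as a pair at E-box motifs and switch on the Per, Cry, Nr1d1, Nr1d2 and Dbp genes. The PER and CRY proteins then return to the nucleus and repress ARNTL and CLOCK, while NR1D1 and NR1D2 (REV-ERBα and REV-ERBβ) repress Arntl itself, so that Arntl transcripts peak when those of Nr1d1 and Dbp are low. DBP, with its relatives TEF and HLF, acts at D-box motifs in further genes. In most tissues of the mouse, heart included, these transcripts cycle over the day.

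Promoter sequence is shown for 4 members because it holds the motifs through which the loop runs. RefSeq windows of 250 bases before a transcription start (assembly GRCm38.p6) were matched by gene symbol for 9 of the 10 members, with 13 windows in all. Each window was searched on both strands for the E-box CACGTG, the motif CACGTT, which is called E-box-like here and reads AACGTG on the other strand, and the D-boxes TTATGTAA and TTACGTAA. The ROR elements, through which NR1D1 and NR1D2 act, were searched as TAGGTCA and also as TGGGTCA. The sequences read 5′ to 3′ along the gene and end at the base before the start, with the matched letters in capitals.
Per1 (chr11:69098699-69098948, + strand): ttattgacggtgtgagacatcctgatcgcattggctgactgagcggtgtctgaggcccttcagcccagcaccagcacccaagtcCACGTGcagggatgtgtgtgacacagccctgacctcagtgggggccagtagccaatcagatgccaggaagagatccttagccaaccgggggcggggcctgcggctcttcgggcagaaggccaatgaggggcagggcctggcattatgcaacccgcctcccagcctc
Cry1 (chr10:85185055-85185304, - strand): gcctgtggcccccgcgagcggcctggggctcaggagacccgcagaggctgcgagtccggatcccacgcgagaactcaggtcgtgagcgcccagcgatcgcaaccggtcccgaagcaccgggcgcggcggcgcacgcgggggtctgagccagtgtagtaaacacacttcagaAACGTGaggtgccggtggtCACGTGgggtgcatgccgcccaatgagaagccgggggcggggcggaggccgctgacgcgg
Nr1d1 (chr11:98775378-98775627, - strand): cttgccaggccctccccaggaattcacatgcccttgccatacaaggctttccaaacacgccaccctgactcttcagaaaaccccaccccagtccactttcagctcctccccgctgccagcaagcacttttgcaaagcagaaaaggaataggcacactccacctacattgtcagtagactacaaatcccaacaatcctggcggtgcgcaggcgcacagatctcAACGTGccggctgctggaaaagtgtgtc
Per3 (chr4:151044666-151044915, - strand): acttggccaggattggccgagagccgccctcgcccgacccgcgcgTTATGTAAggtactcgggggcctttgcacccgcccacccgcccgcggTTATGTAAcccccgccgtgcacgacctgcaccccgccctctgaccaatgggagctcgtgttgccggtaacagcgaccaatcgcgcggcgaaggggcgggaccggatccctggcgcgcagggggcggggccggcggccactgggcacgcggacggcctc
In these windows the E-box of Per1 began 166 bases before the start and that of Cry1 60 bases before it, with an E-box-like motif of Cry1 at 79 bases and that of Nr1d1 at 28 bases. Per3 held no E-box in this window and D-boxes at 205 and 158 bases. Counting windows, 2 of the 13 had an E-box, 3 an E-box-like motif, 1 a D-box and 0 a ROR element. Over all 32851 RefSeq windows of this length, 6.02% held the E-box, 3.85% the E-box-like motif, 0.931% either D-box and 5.38% either ROR element. A match describes letters only, and a window with none says nothing of the factor.

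The arrays read each gene through probes of 60 bases. Those of Arntl and Nr1d1 are shown because the opposite course of these genes is a main result below, with positions given in mm9 coordinates by the array files. The Nr1d1 probe covered 503 bases of genome with 60 bases of sequence, so that it joined separate stretches of the gene. The exons that the probes lie in were not assigned here.
Arntl probe (chr7:120456978-120457037, + strand): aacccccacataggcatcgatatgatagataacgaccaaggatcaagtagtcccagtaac
Nr1d1 probe (chr11:98630526-98631028, - strand): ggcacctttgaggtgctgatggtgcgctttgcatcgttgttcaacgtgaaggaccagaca

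Of the 25 probes of the members, 21 were well above background on every array of at least 1 age group and were kept, and 1 probe each of Clock, Per1, Per2 and Cry1 was not. Where several were kept, the brightest on average stood for its gene, and for all 10 members the chosen probe was well above background on all 8 arrays. Values are the log2 of the background-subtracted signal set against the array's own 75th percentile, so that 0 marks a probe at that percentile and a difference of 1 is a 2-fold difference in signal. Signals of different probes depend on their sequence, so levels were compared between pools and not between genes. In a pool of sorted cells, fewer cells with a transcript and less of it per cell cannot be told apart. All arrays were on 1 slide and scanned on 1 day, no spot was saturated, and 57.8% to 63.4% of spots were well above background. Of the 7 cMSC markers, all 7 were measured, and 1 (Thy1) was lower in aged pools. Of 5 neutrophil markers, 4 were measured and 3 (S100a9, Ly6g and Camp) were higher in aged pools, where the summed log2 level of the list was 1.54 to 3.27, against 0.34 to 0.91 in young pools. No measured marker of endothelial, other leukocyte, cardiomyocyte, mural, mesothelial or Schwann cells passed the test with age.

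No clock gene differed between aged and young cMSCs beyond the spread between pools. By unpaired limma with Benjamini-Hochberg adjustment over all genes, 0 of the 10 members passed an adjusted p of 0.05 and 0 had an unadjusted p under 0.05. In the same fit 479 genes were higher and 162 lower in aged pools, or 3.17% of the genes tested. The values of aged and young pools overlapped for every member (0 of 10 without overlap), against 10.7% of all genes without overlap. For only 10 genes, counts of 0 are near both shares and do not set the members apart from other genes. Estimates were higher in aged pools for 3 members and lower for 7, with a median log2 fold change of -0.13 against 0.00 over all genes. Pools of the same age differed more: the within-group SD was above the median of all genes (0.173) for 8 of the 10, and its median over the members was 0.335. This was not particular to clock genes, since the SD was above the same median for 12 of 12 glucocorticoid-induced genes and 19 of 21 immediate early genes.

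**Figure D1:**
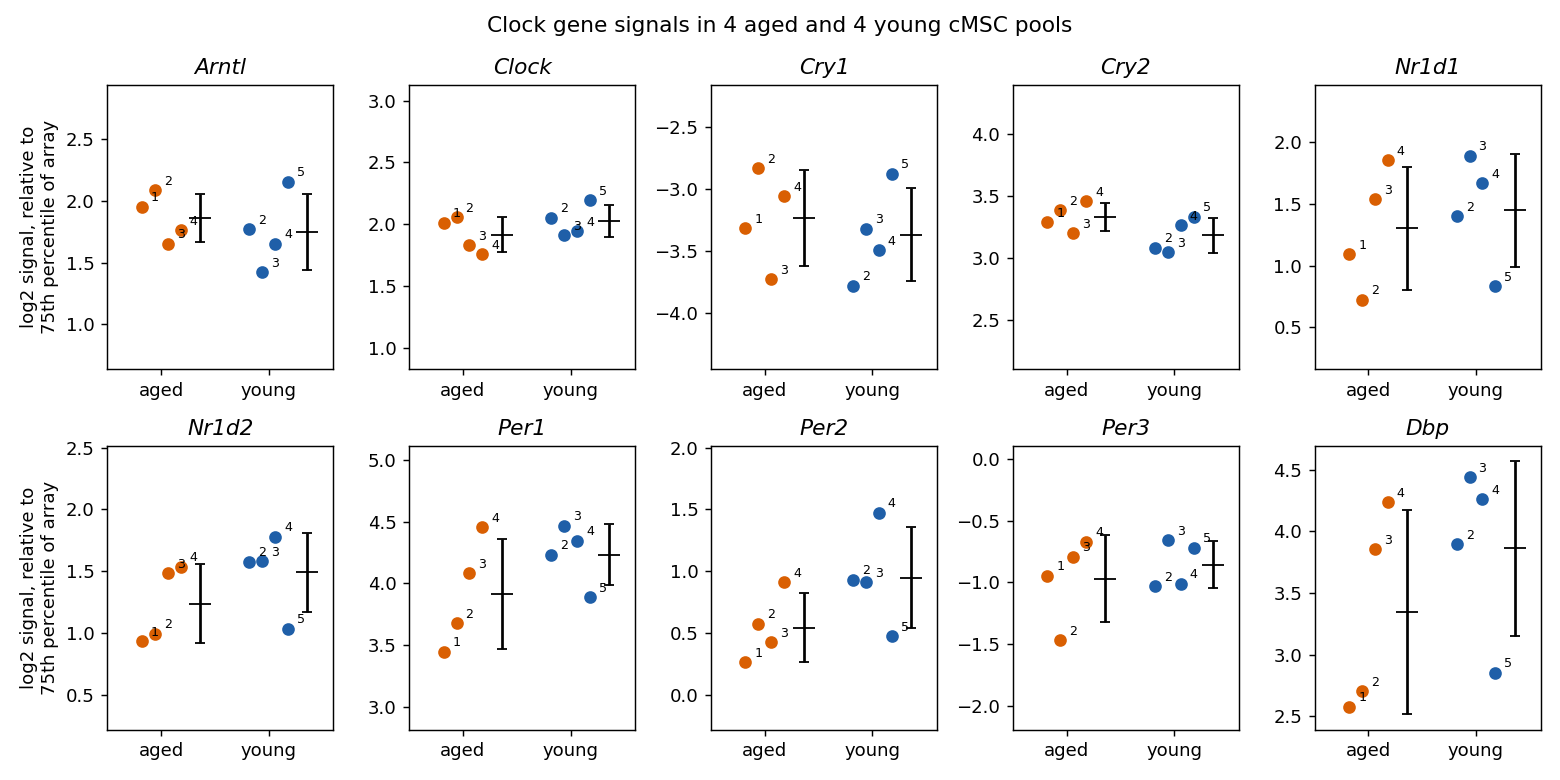
Log2 signal of the 10 clock genes, set against the array's own 75th percentile, in each aged (orange, left) and young (blue, right) cMSC pool, numbered as in the text; black bars show the mean and SD of each group (n = 4), and all panels span 2.3 log2 units. Aged and young pools overlap in every panel, and aged pools 1 and 2 lie with young pool 5 at the bottom of the Dbp, Nr1d1, Nr1d2 and Per1 panels and at the top of the Arntl panel.

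Among the activators of the loop, Arntl had log2 signals of 1.95, 2.09, 1.65 and 1.76 in aged pools 1, 2, 3 and 4, against 1.77, 1.42, 1.65 and 2.16 in young pools 2, 3, 4 and 5. Its highest pool and its lowest were both young (pools 5 and 3), 1.66-fold apart, and the aged pools lay between them. The log2 fold change of aged over young pools was 0.11 ± 0.16 (SE), with a 95% interval of -0.26 to 0.49 and an adjusted p of 0.87 by limma. Clock, its partner, had 2.01, 2.06, 1.83 and 1.76 in aged pools 1, 2, 3 and 4, against 2.05, 1.91, 1.94 and 2.20 in young pools 2, 3, 4 and 5. The whole range of Clock was 1.35-fold with this probe (0.44 on the log2 scale, against 0.45 and 0.997 with its further kept probes), its within-group SD stood at percentile 34.7 of all genes, and its log2 fold change was -0.11 ± 0.10 (SE).

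The repressors of Arntl varied more. Nr1d1 had log2 signals of 1.09, 0.72, 1.54 and 1.85 in aged pools 1, 2, 3 and 4, against 1.40, 1.89, 1.67 and 0.83 in young pools 2, 3, 4 and 5. Its 3 lowest pools were aged 2, young 5 and aged 1, which were the 3 highest pools of Arntl. Over pools Nr1d1 ranged 2.25-fold, whereas its log2 fold change with age was -0.15 ± 0.29 (SE; adjusted p = 0.91 by limma). Nr1d2, its paralog, had 0.93, 0.99, 1.49 and 1.54 in aged pools 1, 2, 3 and 4, against 1.58, 1.58, 1.78 and 1.03 in young pools 2, 3, 4 and 5. The same pools were lowest, below a gap from 1.03 to 1.49 that no pool filled, and the log2 fold change of Nr1d2 was -0.25 ± 0.20 (SE).

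Dbp, the output factor, showed the widest spread of the members. It had log2 signals of 2.58, 2.71, 3.85 and 4.23 in aged pools 1, 2, 3 and 4, against 3.89, 4.44, 4.26 and 2.86 in young pools 2, 3, 4 and 5. Aged 1, aged 2 and young 5 were again the lowest pools, separated from the other 5 by a gap from 2.86 to 3.85, and the whole range was 3.63-fold. The within-group SD of Dbp, 0.769, lay at percentile 98.9 of all genes. With such distances between pools of an age the log2 fold change was -0.52 ± 0.46 (SE), with an adjusted p of 0.74 by limma. Its 95% interval ran from -1.57 to 0.53. As a ratio of aged to young signal the interval ran from 0.34 to 1.45, so it held larger falls than rises.

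Of the Period genes, whose proteins form the repressing complex with the cryptochromes, Per1 followed Dbp and Nr1d1. Its log2 signals were 3.45, 3.68, 4.08 and 4.45 in aged pools 1, 2, 3 and 4, against 4.23, 4.47, 4.35 and 3.89 in young pools 2, 3, 4 and 5. Aged 1, aged 2 and young 5 were its lowest pools here too, 2.03-fold covered the range, and the log2 fold change was -0.32 ± 0.22 (SE). Per2 came nearest to a difference with age, with 0.26, 0.57, 0.42 and 0.91 in aged pools 1, 2, 3 and 4, against 0.93, 0.91, 1.47 and 0.47 in young pools 2, 3, 4 and 5. Young 5 lay among the aged pools and aged 4 among the young ones, and the log2 fold change of Per2 was -0.40 ± 0.22 (SE; 95% interval -0.90 to 0.09; adjusted p = 0.48 by limma). An exact two-sided permutation test of Per2 over the 70 assignments of pools gave p = 0.17, where 0.029 is the smallest p that 4 pools against 4 allow. Per3, with the probe that stood for it, did not share the order of Per1. It had -0.95, -1.47, -0.79 and -0.67 in aged pools 1, 2, 3 and 4. In young pools 2, 3, 4 and 5 it had -1.03, -0.66, -1.01 and -0.72. Young 5 was among its 3 highest pools, and aged 2 stood alone at the bottom. With a further, dimmer kept probe of Per3, aged 2, young 5 and aged 1 were the lowest pools (-5.15, -4.70 and -4.68). With the other further probe these were aged 1, young 5 and young 2 (-2.88, -2.56 and -2.55).

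With the probes that stood for them, the cryptochromes, the other arm of the repressing complex, had an order of their own. Cry1, read by a dim probe, had -3.32, -2.83, -3.73 and -3.06 in aged pools 1, 2, 3 and 4, against -3.78, -3.32, -3.49 and -2.88 in young pools 2, 3, 4 and 5. Aged 2 and young 5 were its highest pools, as they were for Arntl, but aged 1 was not with them. Cry2 had 3.29, 3.39, 3.20 and 3.46 in aged pools 1, 2, 3 and 4, against 3.08, 3.05, 3.27 and 3.33 in young pools 2, 3, 4 and 5, a range of 1.33-fold with this probe (0.41 on the log2 scale, against 0.85 and 0.70 with its further kept probes). With 1 of those further Cry2 probes young 5, aged 2 and aged 1 were the lowest pools (1.43, 1.64 and 1.78). With the other these were aged 2, young 4 and young 5 (0.65, 0.67 and 0.71). The log2 fold changes were 0.13 ± 0.24 (SE) for Cry1 and 0.15 ± 0.10 (SE) for Cry2, with adjusted p-values of 0.89 and 0.59 by limma.

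**Figure D2:**
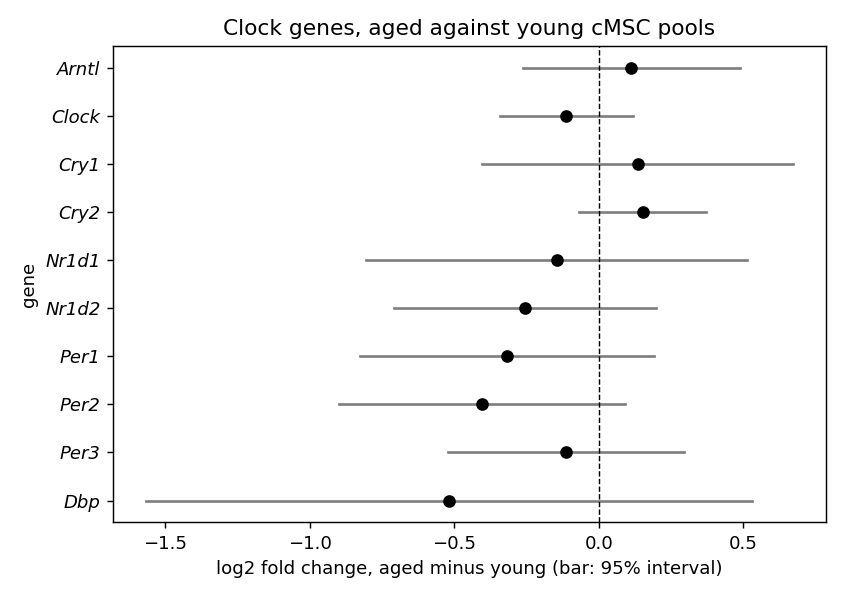
Log2 fold change of each clock gene in aged over young cMSC pools (points; n = 4 pools each) with its 95% interval from limma (bars); the dashed line marks no difference. Every interval crosses 0, and that of Dbp, from -1.57 to 0.53, is the widest.

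The order of the pools was therefore shared by several members and ran across the age groups. The 3 lowest pools of Dbp, Nr1d1, Nr1d2 and Per1 were aged 1, aged 2 and young 5 in each case, and the 3 highest pools of Arntl were these same ones. With 1 further kept probe of Arntl, young 2 (-0.15) lay just above aged 2 (-0.17). For Dbp and Nr1d2 the pools fell into sets of 3 and 5, by a criterion chosen after the values were seen (a gap of over 0.5 of the range with at least 2 pools on either side). No correlation over all pools is printed for pairs of members that hold them, though such pairs enter the counts of pairs below. The sets were too small for a test within them.

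**Figure D3:**
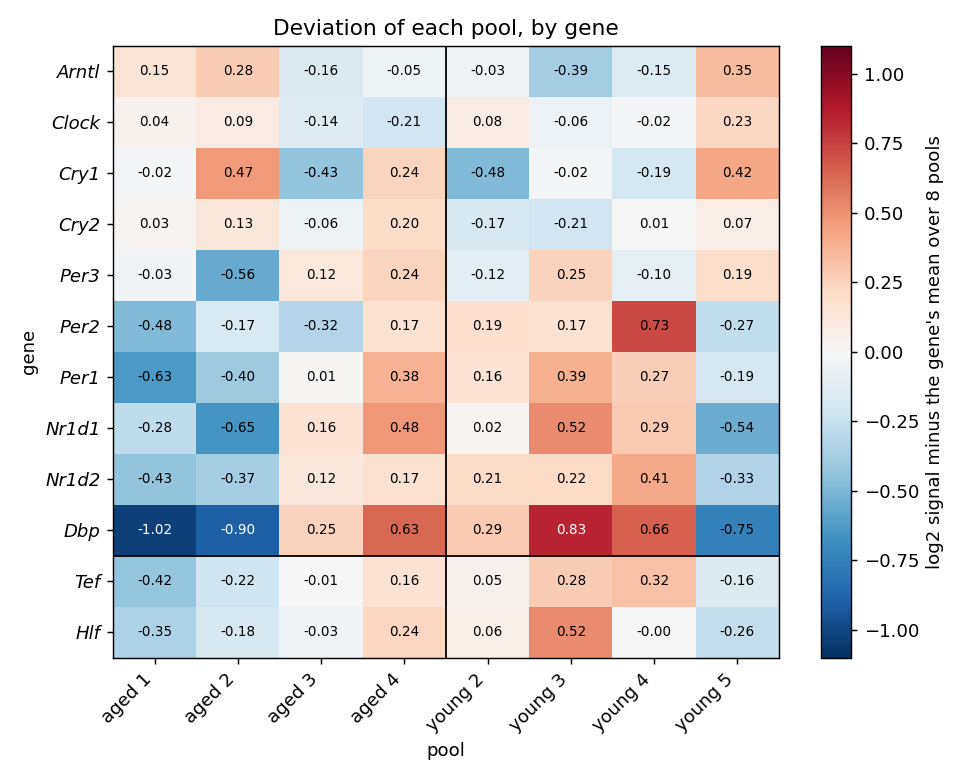
Log2 signal of each pool minus the gene's mean over the 8 pools, for the 10 clock genes and for Tef and Hlf, with aged pools left of the vertical line and young pools right of it; red is above and blue below the mean. Dbp is at -1.02, -0.90 and -0.75 in aged 1, aged 2 and young 5 and between 0.25 and 0.83 in the other 5 pools, while Arntl is at 0.15, 0.28 and 0.35 in the first 3 and below 0 in the others.

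Correlations were computed for the 45 pairs of members over the 8 pools, each with an exact two-sided permutation test over 40320 orders and adjusted over the 45 pairs. By Pearson's r, 8 pairs passed an adjusted p of 0.05 (6 positive and 2 negative), 2 pairs passed by Spearman's rho, and 14 had an unadjusted p under 0.05. Among the 28 pairs without Dbp and Nr1d2, 2 passed by r when adjusted over the 45 pairs, and 1 when adjusted over the 28 alone. Arntl and Nr1d1 moved in opposite directions, with r = -0.92 (adjusted exact permutation p = 0.025 over 45 pairs and 0.044 over 28) and rho = -0.88 (adjusted exact permutation p = 0.054). Without the 2 pools farthest from the median of Arntl, young 3 and young 5, r was -0.89. Within aged pools alone r was -0.88, within young pools alone -0.99, and within the 2 rows of the slide -0.90 and -0.99, each over 4 pools and given with no test. As deviations from the mean of their own age group, with permutations kept within groups (576 orders), Arntl and Nr1d1 had r = -0.91 (adjusted exact permutation p = 0.045).

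For Per1 and Nr1d1 r was 0.86, which passed when adjusted over 45 pairs (adjusted exact permutation p = 0.049) and did not over 28 (0.12), with rho = 0.90 (adjusted exact permutation p = 0.054). Without aged 1 and aged 2, the pools farthest from the median of Per1, r was 0.93, and it was 0.86 within aged pools and 0.998 within young pools. As deviations from the group means r was 0.88 (adjusted exact permutation p = 0.055). Both relations missed the threshold on rho, and the count of 8 pairs was not stable: 1 to 5 pairs passed when a pool was left out (1 without aged 2, young 2, young 3 or young 5), 2 in the authors' log2 table and 16 with the mean of all kept probes of a gene.

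Clock had a small range, and its relation to Nr1d1 passed the test as deviations from the group means but not over the 8 pools as such. Over the 8 pools r was -0.80 (adjusted exact permutation p = 0.070), and it was -0.68 without aged 4 and young 5. It was -0.59 with median scaling and -0.66 with the mean of all kept probes. Taken as deviations from the group means, Clock and Nr1d1 had r = -0.99 (adjusted exact permutation p = 0.039). For Arntl and Clock r was then 0.91 (adjusted exact permutation p = 0.039). Over all pools without that step, Arntl and Clock had r = 0.69 (adjusted exact permutation p = 0.16). Per1 and Per2 had r = 0.76 (adjusted exact permutation p = 0.099) and Cry1 and Cry2 r = 0.70 (adjusted exact permutation p = 0.16), which did not pass.

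**Figure D4:**
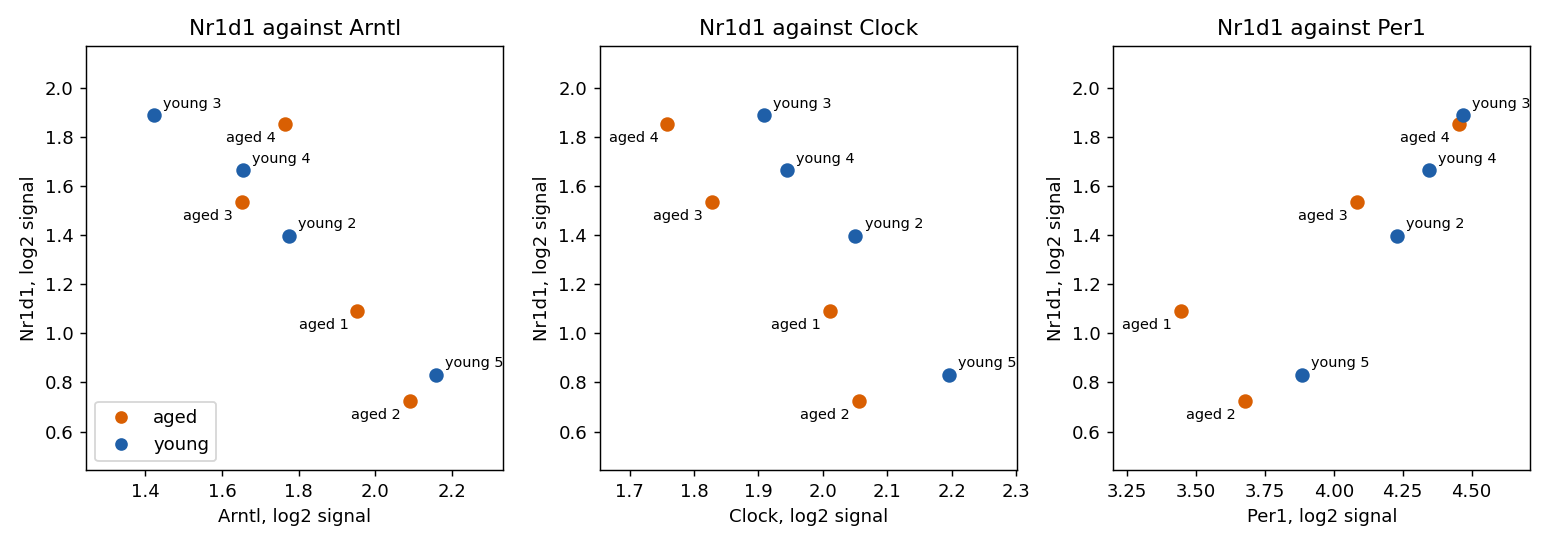
Log2 signal of Nr1d1 against that of Arntl, Clock and Per1 in aged (orange) and young (blue) cMSC pools, 1 point per pool. Nr1d1 falls as Arntl rises (r = -0.92) and rises with Per1 (r = 0.86), and against Clock the aged pools lie to the left of young pools with a like Nr1d1 signal (r = -0.80 over the 8 pools, -0.99 as deviations from the group means).

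Separate probes of a gene showed how far a pool's value depended on the probe. They read the same RNA on the same array, so error shared by all probes of a pool was not measured. The 2 Dbp probes, as deviations from their own means, differed by at most 0.15 in any pool, against ranges of 1.86 and 1.90, and had r = 0.99 over the 8 pools. The further 2 probes of Nr1d2 followed the first with r = 0.99 and 0.97, and those of Arntl with r = 0.78 and 0.71, differing from it by up to 0.26 and 0.32 in a pool. Clock (r = 0.73 and 0.25) and Per3 (r = 0.66 and 0.09) agreed less among their probes. For Cry2 the further probes, assigned by the array files to other transcripts of the gene, ran against the first with r = -0.17 and -0.65. These correlations of probes over pools are descriptions and were not tested. None of the 21 kept probes passed the test with age by limma (lowest adjusted p = 0.49).

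**Figure D5:**
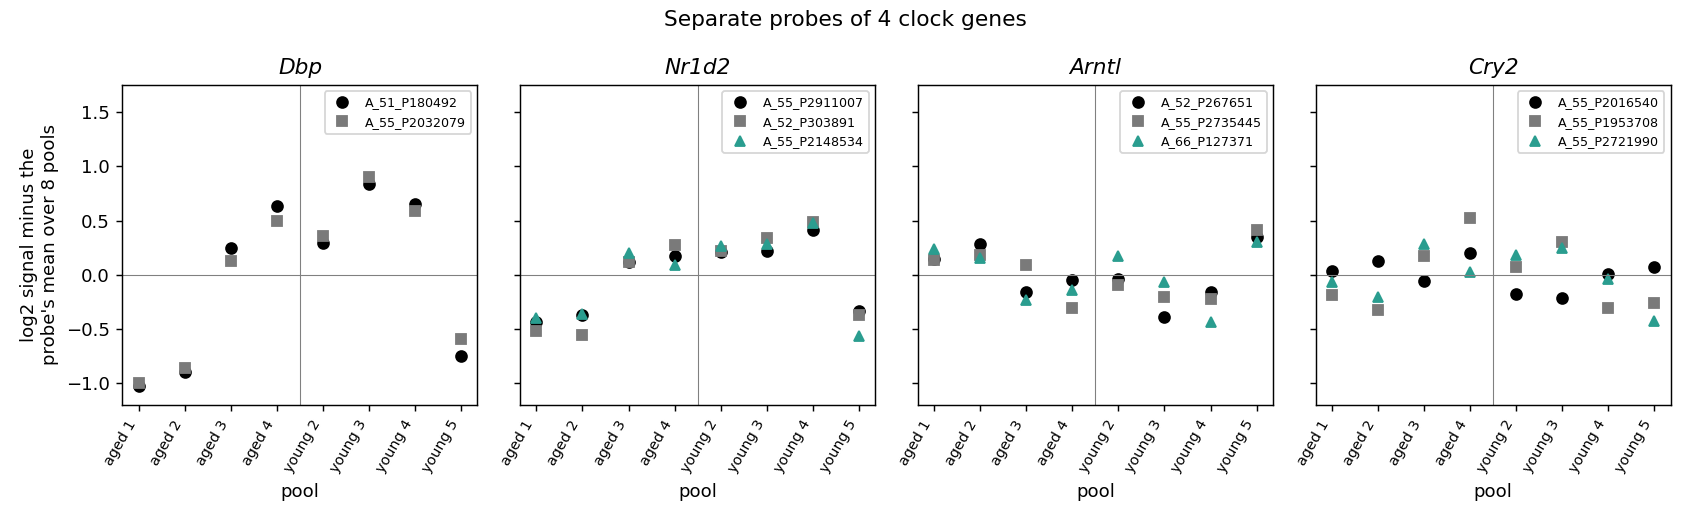
Log2 signal of each kept probe of Dbp, Nr1d2, Arntl and Cry2 minus that probe's mean over the 8 pools, with aged pools left of the vertical line and young pools right of it; black circles are the probe that stood for the gene. The 2 Dbp probes lie within 0.15 of each other in every pool, whereas the further Cry2 probes are below 0 in young 5 and aged 2, where the first is above 0.

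Genes around the loop were read from lists drawn up by function, and none of their members passed the test with age (0 higher and 0 lower in each list, by limma, against 3.17% of all genes). In lists of this size a count of 0 is near that share. The list of further clock transcription factors had 8 of 11 members tested. Arntl2, a paralog of Arntl, came closest, with log2 signals of 1.14, 1.11, 1.17 and 1.21 in aged pools 1, 2, 3 and 4, against 0.98, 0.73, 0.83 and 0.65 in young pools 2, 3, 4 and 5. Its aged pools all lay above its young ones, with a log2 fold change of 0.36 ± 0.09 (SE; adjusted p = 0.068 by limma), and it passed with limma's trend and robust settings. Bhlhe41 (DEC2), a repressor of the loop, had the largest estimate of that list at 0.68 ± 0.29 (SE; adjusted p = 0.33 by limma), which was 0.38 without young 5, 0.31 with the normexp background correction and 0.18 with the mean of its kept probes. Of the 18 kinases, phosphatases and ubiquitin enzymes of clock proteins, all tested, Usp2, a deubiquitinase, had -0.58 ± 0.27 (SE). Fbxl21, of a ubiquitin ligase that acts on cryptochromes, was read by a dim probe and had 0.31 ± 0.15 (SE). The estimate of Fbxl21 was 0.10 with the normexp background correction and 0.14 in the authors' log2 table. Of 14 cofactors, Timeless had 0.67 ± 0.20 (SE; adjusted p = 0.13 by limma) with no overlap between aged and young pools, and 0.28 with the mean of its kept probes. Ep300, a histone acetyltransferase, had -0.14 ± 0.12 (SE), a sign that turned when all its kept probes were averaged. The output genes that cycle in many mouse tissues, 14 of 16 tested, were led in size by Bhlhe41 and Usp2 as well.

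The pools' order was found in the relatives of Dbp. Tef had log2 signals of 4.06, 4.26, 4.48 and 4.64 in aged pools 1, 2, 3 and 4, against 4.53, 4.77, 4.81 and 4.33 in young pools 2, 3, 4 and 5. Hlf had -0.50, -0.34, -0.18 and 0.08 in aged pools 1, 2, 3 and 4, against -0.10, 0.36, -0.16 and -0.42 in young pools 2, 3, 4 and 5. In both genes aged 1, aged 2 and young 5 were the 3 lowest pools, and r with Arntl was -0.78 for Tef and -0.83 for Hlf. Among the output genes, 3 of 14 (Tef, Hlf and Por, cytochrome P450 reductase) had r with Arntl under -0.7, against 3.56% of all genes. None of the 18 enzymes of clock proteins and 1 of the 14 cofactors (Sfpq) did. Aged 1, aged 2 and young 5 were also the 3 lowest pools of the cofactors Sfpq, Sirt1 and Kdm5a and of the output gene Pnp. All genes named here beside Arntl were picked out after their values were seen, and these r values were not tested.

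Genes that respond to glucocorticoid hormone or to the handling of cells were examined beside the clock genes, since Per1 is itself a glucocorticoid target. Of 12 glucocorticoid-induced genes, 3 (Klf9, Ddit4 and the member Per1) had r with Arntl under -0.7, and of 21 immediate early genes 4 did (Jun, Klf2, Klf4 and Klf6), against 3.56% of all genes. More genes of both lists had r with Nr1d1 over 0.7, against 3.92% of all genes. Of the first list these were Sgk1, Klf9, Dusp1 and Per1. Of the second they were Fosb, Jun, Atf3, Dusp1, Klf2, Klf4 and Klf6. These genes were picked out after their values were seen, and the r values were not tested. Klf9, named after its values were seen, had log2 signals of 3.65, 3.67, 3.96 and 4.25 in aged pools 1, 2, 3 and 4, against 4.11, 4.25, 3.89 and 3.72 in young pools 2, 3, 4 and 5. Klf2, also named after its values were seen, had 5.52, 5.77, 6.20 and 6.33 in aged pools 1, 2, 3 and 4, against 6.04, 6.29, 6.14 and 5.81 in young pools 2, 3, 4 and 5. In both, aged 1, aged 2 and young 5 were the lowest pools. The same pools were lowest in Sgk1, Errfi1, Dusp1, Atf3, Klf4 and Klf6 of these lists, besides Per1. What share of all genes has this order is not given here. By size of the difference with age, Mt2 (0.51 ± 0.35, SE, and 0.22 without aged 4) and Ddit4 (-0.43 ± 0.49, SE, and -0.99 and past the test without young 5) led the glucocorticoid list, and Nr4a3 (-0.53 ± 0.24, SE) and Ier3 (0.50 ± 0.30, SE, and 0.22 without aged 4) the immediate early list, none past the test with all pools. The 2 measured mesothelial markers of a list of 4 ran the other way, with aged 2, aged 1 and young 5 highest and a summed log2 level of -1.33, -0.47, -2.37 and -2.02 in aged pools 1, 2, 3 and 4, against -1.87, -2.09, -2.21 and -1.48 in young pools 2, 3, 4 and 5, while Upk3b and Krt19 had no kept probe. The part of these genes and markers in the shared order of the clock genes was not tested. Aged 1, aged 2 and young 5 lay in both rows of the slide, and the 75th percentiles of their arrays (554, 793 and 479 units of signal) fell within the range of the other 5 (487 to 816) but for young 5.

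Of the 15070 further genes with a symbol, those most like Arntl across the 8 pools were Nedd9 (r = 0.95), Smarca2 (0.95), Lrig3 (0.94), Nlrx1 (0.94) and Pabpn1 (0.94). Those most opposed to Arntl were Gm5901 (r = -0.98), Fam76a (-0.94), Gm16853 (-0.93), Pgap3 (-0.92) and Sptlc3 (-0.92). For Dbp, ranked in the same way but given without values because its pools fell into 2 sets, the likest were Cyth2, Ppp1r12c, Polr3a, Tef and Tmem120a, with 2810433D01Rik, Smarca2, L3hypdh, Snai2 and D930048N14Rik most opposed. Tef was thus the only gene of the clock lists among these 20 entries, and Smarca2, the ATPase of a chromatin remodelling complex, was among the genes most like Arntl and most opposed to Dbp. These are the extremes of 15070 correlations for each gene over 8 pools, and they are given as a description with no test. Nr1d1, left out of that search as a member, had r = -0.92 with Arntl.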

How the data were processed

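RNA of 8 pools was hybridised to 1-colour Agilent mouse arrays. The authors deposited each array's scanner output, whose processed signal is an intensity on a linear scale, background-subtracted by Agilent Feature Extraction 10.10.1.1 and not normalized between arrays. The authors also deposited a quantile-normalized table of log2 values (median 8.12), used as an alternative. Control spots and outlier spots were left out, log2 signals were taken relative to each array's 75th percentile, a probe was kept if every array of either age group (4 each) had it well above background, and a gene with several was read by the brightest of them. Of 56605 probes, 32994 were named by accession and 10224 by a current symbol, and 13387 kept the file's name. The age groups were tested by limma 3.58.1 (R 4.3.3), unpaired, with Benjamini-Hochberg adjustment over 20226 genes, a method tested on simulated data. Pools are separate samples of different mice, each hybridised once, and their number limits the precision. Pairs of members were tested by exact permutation. Alternatives were other normalizations, background corrections, filters, probe rules, blocks, array weights and leaving out each pool. Named genes were the 10 members, of each further list every gene that passed or else the 2 with the largest absolute fold change, and the 5 highest and 5 lowest correlations with Arntl and Dbp. The members and lists were chosen with earlier results of these data known.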

Additional observations from a re-analysis of the deposited data

Results flagged for a closer look

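Ddit4, a stress- and glucocorticoid-induced inhibitor of mTOR signalling, was far lower in young pool 5 than in the other young pools. Its log2 signals were 2.73, 3.31, 3.11 and 3.11 in aged pools 1, 2, 3 and 4, against 4.14, 4.14, 3.89 and 1.83 in young pools 2, 3, 4 and 5. The gap below the other young pools was 0.891 of the range of the group, past the critical value of Dixon's ratio for 4 samples. With all pools the log2 fold change of aged over young was -0.43, and without young 5 it was -0.99 and passed the test by limma. This was the single value so marked among 44 groups of 22 genes, where chance marks about 1 in 20 groups.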

How the results depend on the processing

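No clock gene passed with age under any of the alternatives run, with a lowest adjusted p of 0.11 by limma (array weights), and 195 of 200 recomputed fold changes of the members kept their direction. The 5 that did not came from leaving out a pool: Per3 was 0.0531 without aged 2, Cry1 -0.00367 without young 2 and -0.000183 without aged 2, and Nr1d1 0.00222 without young 3 and 0.0470 without aged 2. Leaving out each pool in turn, the log2 fold changes ran from -0.213 to 0.0531 for Per3, from -0.00367 to 0.301 for Cry1 and from -0.351 to 0.0470 for Nr1d1. With no change of sign they ran from -0.85 (without young 5) to -0.26 (without aged 1) for Dbp, -0.50 (without aged 4) to -0.16 (without aged 1) for Per1, -0.56 to -0.23 (without young 4) for Per2, -0.41 (without young 5) to -0.15 (without aged 1) for Nr1d2, -0.16 to -0.05 (without young 5) for Clock and 0.00286 (without young 3) to 0.25 (without young 5) for Arntl. Of 240 values for the further genes, Ep300 turned to 0.0332 with the mean of all kept probes and to 0.00333 with the replicate block, and Arntl2 (0.36) passed with limma's trend and robust settings. The count of 8 correlated pairs was less stable: 4 pairs passed after quantile normalization, 2 in the authors' log2 table and 16 with the mean of all kept probes, 1 among the 28 pairs of members whose pools do not fall into 2 sets, adjusted over those alone and chosen after seeing the data, where Per1 with Nr1d1 no longer passed, and 1 to 5 when a pool was left out (1 without aged 2, young 2, young 3 or young 5, 2 without aged 3, 3 without aged 1 or young 4 and 5 without aged 4). The cause was not tested. Over these alternatives r of Arntl with Nr1d1 ran from -0.98 to -0.84 and of Per1 with Nr1d1 from 0.82 to 0.96. That of Clock with Nr1d1 ran from -0.84 to -0.59. Pools with the same number deviated together with r of 0.18, -0.17 and -0.27, which gave no sign that the numbers pair them. Aged 1 and young 5 differ in number but share a label code, and had r = 0.14. With the pool code as a block, the SE of the log2 fold change was 0.20 for Dbp, 0.0996 for Per2 and 0.13 for Per1. Without it these were 0.46, 0.22 and 0.22, whereas the SE of Cry1 and Cry2 was no lower with it. No clock gene passed with that block (lowest adjusted p = 0.15 by limma). Whether the codes mark paired pools was not tested. With the replicate block 0 clock genes passed, and over all genes 14 were higher and 2 lower, against 479 and 162 without it. The calls over all genes also fell to 207 higher and 51 lower with the pool code as a block and to 201 and 45 without a filter on dim probes, and array weights gave 664 and 345. Each pool was read by 1 array, and 4 probes of members near background were not used.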
